A study of Mus musculus with 24 samples.

Results

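The SoxC genes Sox4, Sox11 and Sox12 were described by their acetylated chromatin in mouse limb buds. They are 3 of 21887 protein-coding genes and were chosen by name, with every H3K27ac peak that lay in the gene or up to 200 kb away on either side. H3K27ac, acetylation of lysine in the tail of histone H3, marks active promoters and enhancers, and was mapped by chromatin immunoprecipitation and sequencing. The 4 libraries with a peak list were control limb buds at embryonic day E11.5, Sox9null limb buds at E11.5, control limb buds at E12.5 and Sox9cKO limb buds at E12.5, with 1 library each. Both kinds of deficiency concern Sox9, which encodes the factor that sets up the chondrocyte lineage, but the labels used here give no allele, Cre driver, strain or number of pooled embryos, and whole limb buds were used. As each group was a single library, no difference carries a test, and each value describes its library. For the Sox9-deficient samples, file name and sample title disagree, each file carrying the name of the other sample. Groups were taken from the titles, these are called the Sox9null-labelled and the Sox9cKO-labelled list, and both assignments are shown where they matter. Of 24 samples in the series, 20 were not analysed here.

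SOX4, SOX11 and SOX12 form the C group of SOX transcription factors. They share an HMG-box DNA-binding domain and a transactivation domain at the C-terminal end, and each is encoded by a gene with no intron. In mouse embryos they are expressed together in neural and mesenchymal progenitors, support the survival of these cells, and in the developing skeleton they help to keep perichondrial and joint progenitors from becoming chondrocytes. Sox4 and Sox11 are each essential in the mouse, whereas mice without Sox12 are viable.

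The promoters are printed because the widest or highest-scored peaks of all 3 genes lay over them. Each is the stretch of 250 bases before the start site on the minus strand of GRCm38.p6 (mm10), from RefSeq, 5′ to 3′, with CCAAT or its reverse complement ATTGG in capitals. CCAAT was chosen after the sequences were seen.
Sox4, chr13:28953700-28953949: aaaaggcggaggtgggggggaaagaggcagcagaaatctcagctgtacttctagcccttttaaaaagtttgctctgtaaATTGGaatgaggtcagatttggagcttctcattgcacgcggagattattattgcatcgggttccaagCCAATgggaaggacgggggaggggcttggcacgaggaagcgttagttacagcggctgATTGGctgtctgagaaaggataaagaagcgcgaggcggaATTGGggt
Sox11, chr12:27342719-27342968: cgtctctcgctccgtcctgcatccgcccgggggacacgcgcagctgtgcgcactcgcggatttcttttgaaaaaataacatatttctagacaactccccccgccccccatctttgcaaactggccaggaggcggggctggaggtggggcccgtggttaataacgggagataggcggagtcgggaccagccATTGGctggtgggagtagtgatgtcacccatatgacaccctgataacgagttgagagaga
Sox12, chr2:152398047-152398296: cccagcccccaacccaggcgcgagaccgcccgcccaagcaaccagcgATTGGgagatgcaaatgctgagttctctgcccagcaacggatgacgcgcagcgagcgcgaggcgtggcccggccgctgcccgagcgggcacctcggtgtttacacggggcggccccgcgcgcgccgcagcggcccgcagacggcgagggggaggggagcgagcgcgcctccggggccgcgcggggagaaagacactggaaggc

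The 3 promoters differed in base composition. G and C made up 50.8% of the Sox4 window, 58.0% of the Sox11 window and 74.4% of the Sox12 window, against a median of 55.6% over 21263 windows of coding genes. The Sox12 window held 35 CpG dinucleotides, more than 96.2% of windows, while Sox11 held 17 and Sox4 held 11, near the median of 10. CCAAT was found on either strand 4 times in Sox4 and 1 time each in Sox11 and Sox12, and 35.4% of all windows held it. The GC box core CCGCCC (reverse complement GGGCGG) was found 2 times in Sox11 and 3 times in Sox12, where a pair of matches overlapped, and not in the Sox4 window, and 42.6% of all windows held it. The SOX core motif AACAAT (reverse complement ATTGTT) was in none of the 3 windows and in 8.22% of all windows. These matches describe letters only.

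The lists differed from each other in ways that touch every value below. They held 28419 to 36937 peaks with median widths of 1141 bp (E11.5 control), 1332 bp (labelled Sox9cKO), 1707 bp (E12.5 control) and 1778 bp (labelled Sox9null), so that the E12.5 control and the Sox9null-labelled list had the broader peaks. Tbx5, the forelimb regulator, divided the lists the same way, with 36.3 and 44.3 kb covered in the E11.5 control and the Sox9cKO-labelled list against 8.07 and 0.970 kb in the E12.5 control and the Sox9null-labelled list. Every other limb mesenchyme marker counted here had the opposite order, with more in the E12.5 control and the Sox9null-labelled list. Tbx4, for example, had 60.8 and 67.3 kb there, against 40.9 and 53.1 kb in the E11.5 control and the Sox9cKO-labelled list. The part of peak width and of these limb genes in the SoxC values was not tested. Of 8 limb mesenchyme markers, 6 had a start-site record, and all 6 start sites lay in a peak in all 4 lists. Summed over the genes plus 20 kb on each side, with peaks of neighbouring genes included, these markers had 172 to 191 kb. The sums were 6.22 to 7.48 kb for 5 neuron markers, 6.47 to 17.2 kb for 4 erythroid markers, 4.75 to 7.24 kb for 4 endothelial markers and 8.43 to 14.3 kb for 4 surface ectoderm markers. For 4 muscle precursor markers the sum was 3.75 kb in the E11.5 control and 8.01 kb in the Sox9cKO-labelled list, and 0 kb in the other lists, with no peak within 20 kb of Myod1, Myf5, Pax3 or Pax7. The part of other cell types in the SoxC values was not tested, and in whole limb buds fewer acetylated cells and less acetylation per cell cannot be told apart.

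Each SoxC gene carried a broad acetylated domain over its start site in all 4 lists. A peak over the start site in all 4 lists was found for 48.2% of 17492 coding genes with a start-site record. All 12 of these SoxC peaks had a score of 3100, a value shared by 701 to 2771 other peaks of the same list and exceeded by 51 to 159 peaks. No header explains the score, which is the authors' own value and served here for ranks within a list.

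Sox4 lies on chromosome 13 (28948919 to 28953699, minus strand, 4781 bp). Its domain covered 100% of the gene in every list. It was 6507 bp wide in the E11.5 control, 6567 bp in the Sox9null-labelled list, 7608 bp in the E12.5 control and 6481 bp in the Sox9cKO-labelled list. The E12.5 control stood apart at its upstream edge, which reached 1650 bp before the start site, against 738 bp in the E11.5 control and 798 and 771 bp in the Sox9null-labelled and Sox9cKO-labelled lists. Downstream the domain ran 929 to 1177 bp past the end of the gene. Between 98.1% and 99.0% of the start-site peaks of the same list were narrower.

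Sox11 lies on chromosome 12 (27334268 to 27342718, minus strand, 8451 bp). Its domain was the widest of the 3, with 7928 bp in the E11.5 control, 9794 bp in the Sox9null-labelled list, 9819 bp in the E12.5 control and 8962 bp in the Sox9cKO-labelled list. It reached 1988 to 2496 bp upstream and stopped 1109 to 2511 bp short of the gene's 3′ end, so that 70.3% of the gene was covered in the E11.5 control, 80.2% in the Sox9cKO-labelled list, 86.4% in the Sox9null-labelled list and 86.9% in the E12.5 control. At least 99.0% of start-site peaks of the same list were narrower, and only 83 to 153 peaks of a whole list were wider.

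Sox12 lies on chromosome 2 (152393611 to 152398046, minus strand, 4436 bp). Its domain was the narrowest, with 4709 bp in the E11.5 control, 5343 bp in the Sox9null-labelled list, 5094 bp in the E12.5 control and 4852 bp in the Sox9cKO-labelled list. It was centred near the start site, with 2187 to 2717 bp upstream and 2494 to 2664 bp downstream, and covered 56.2% to 60.1% of the gene. Of start-site peaks in the same list, 96.3% to 97.5% were narrower. The order Sox11, Sox4, Sox12 by domain width was the same in each of the 4 lists.

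**Figure D1:**
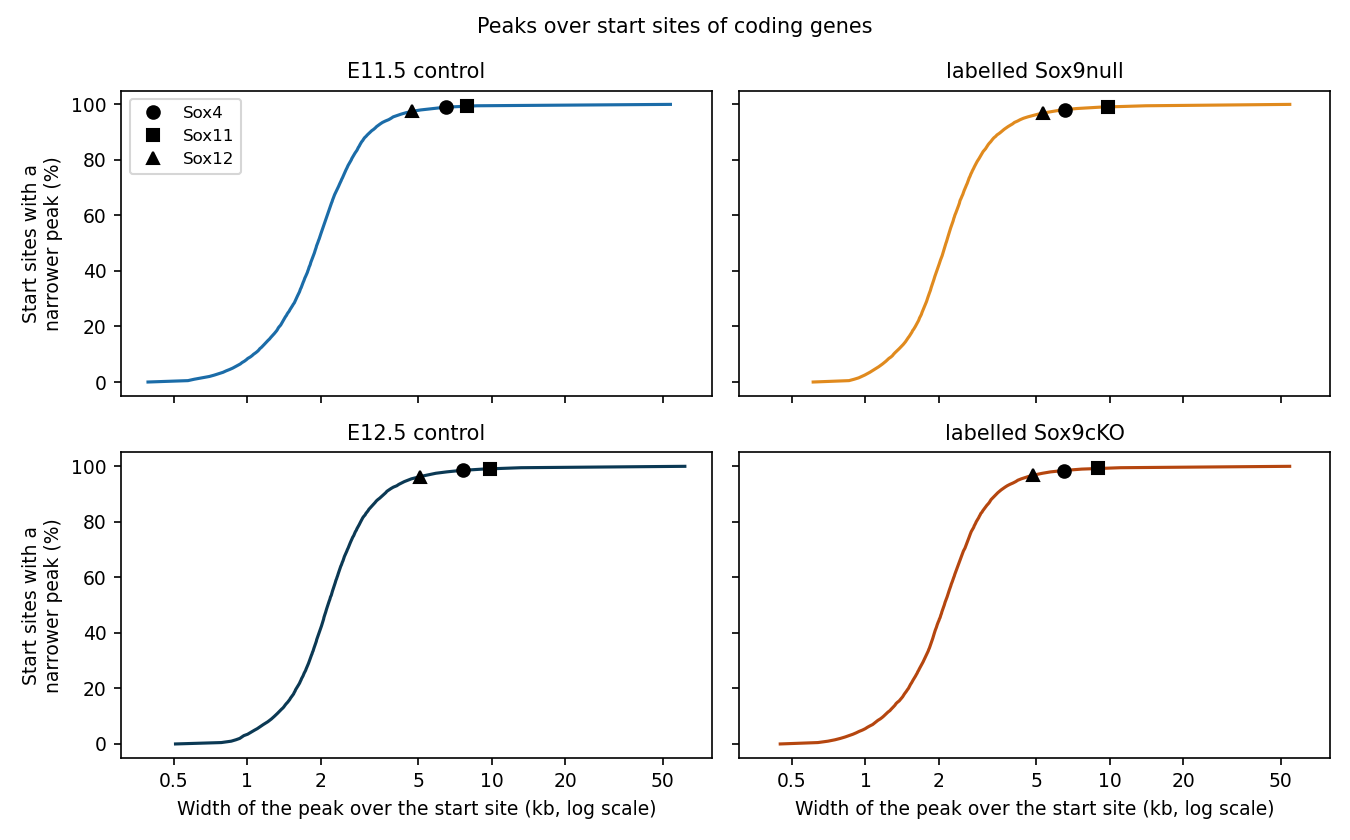
Width of the peak over the start site (kb, log scale) against the percentage of coding-gene start sites with a narrower peak, 1 panel per list; the line is every start site inside a peak and the black markers are Sox4, Sox11 and Sox12. In each list the markers lie at or above 96.3% and in the order Sox12, Sox4, Sox11.

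The genes also differed in their surroundings. For distal peaks, a territory was read from the gene out to the next protein-coding gene and at most 200 kb on each side. Neither Sox4 nor Sox11 had another coding gene within 200 kb, with Prl5a1 797 kb and Cdkal1 238 kb away from Sox4, and Cmpk2 854 kb and Dcdc2c 1095 kb away from Sox11. Their territories were 405 and 408 kb. Sox12 sat between Nrsn2 (17.0 kb away) and Zcchc3 (13.9 kb away) in a territory of 35.3 kb. Its full window held 16 other coding genes. Of these, 7 were touched by a peak in at least 1 list, and the other 9, all beta-defensin genes of the Defb family, were touched by none. The last 160 kb of the window, beyond a peak over 6820408C15Rik, had no peak in any list. Of 11 regions in the full Sox12 window, made by merging overlapping peaks of the 4 lists, 7 touched a coding gene other than Sox12.

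**Figure D2:**
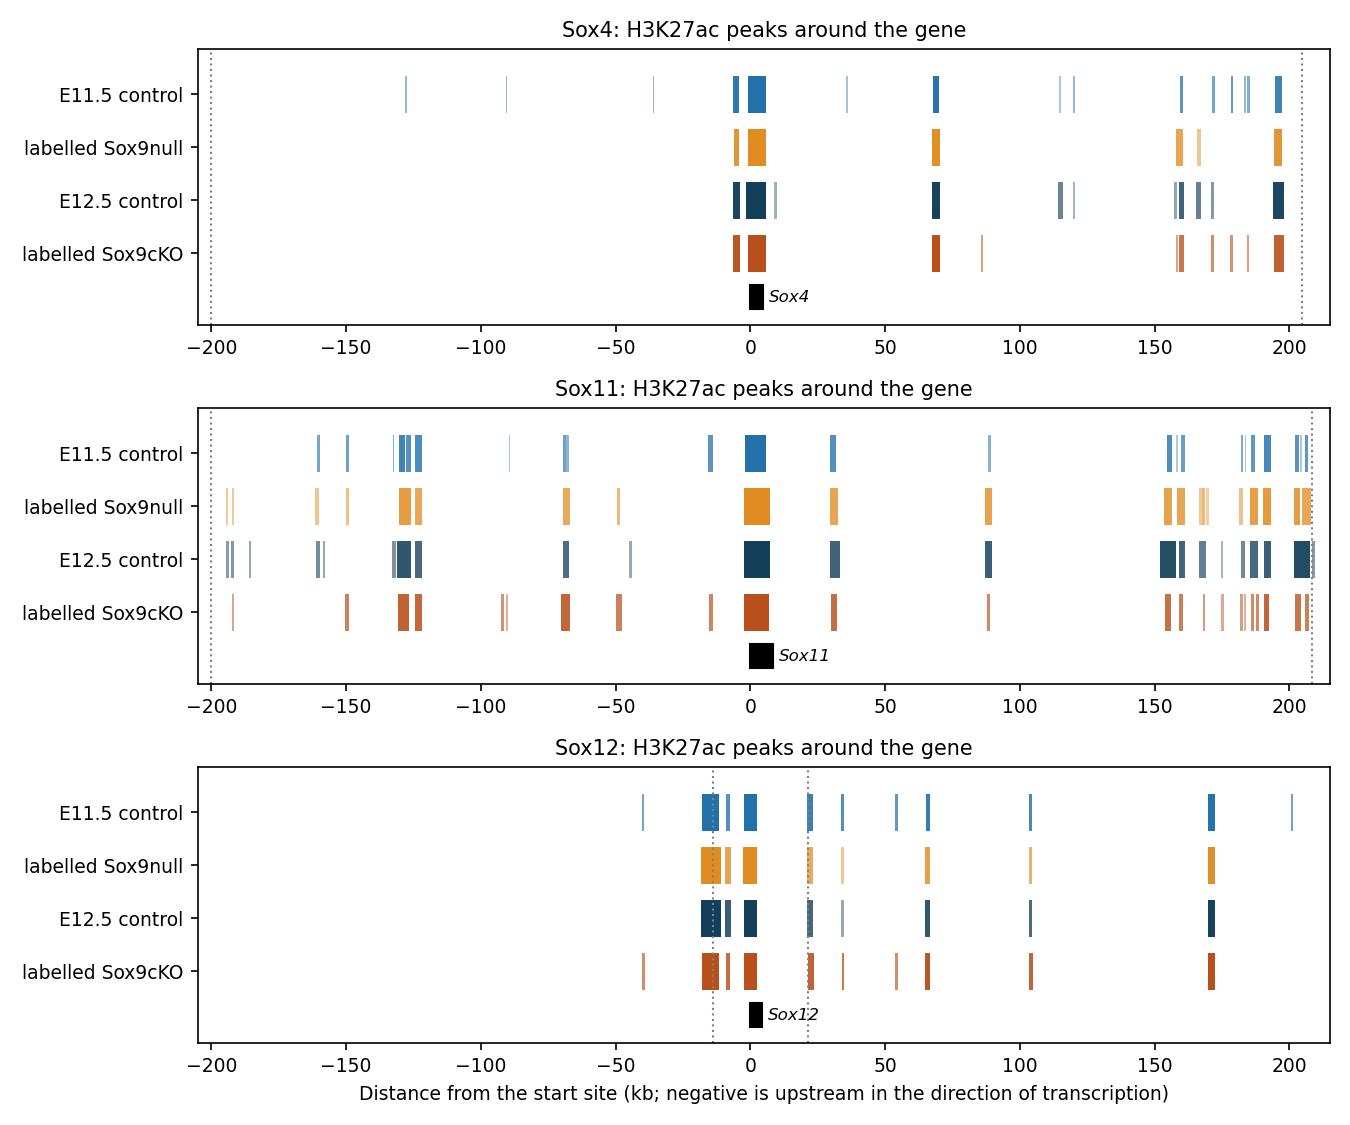
H3K27ac peaks by distance from the start site (kb, negative is upstream), with 1 row per list; darker colour means that a larger share of the same list scored lower, the black bar is the gene and dotted lines bound the territory. Sox4 and Sox11 stand without coding neighbours, with clusters of peaks about 152 to 208 kb downstream, and Sox12 shows peaks on both sides within its 35.3 kb territory.

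Within territories of unequal size, Sox11 had the most covered kb, Sox4 less, and Sox12 the least. Sox4 had 15 peaks over 21.9 kb in the E11.5 control, 6 over 19.2 kb in the Sox9null-labelled list, 11 over 26.98 kb in the E12.5 control and 10 over 21.2 kb in the Sox9cKO-labelled list. Sox11 had 23 peaks over 37.7 kb, 21 over 53.9 kb, 22 over 57.6 kb and 23 over 44.0 kb in the same order. Its number of peaks was nearly constant, and its covered length was high in the E12.5 control and in the Sox9null-labelled list. Sox12 had 4 peaks in every list, over 9.02, 10.9, 10.7 and 8.74 kb. Of all coding genes, at least 97.1% had less covered length than Sox4 in each list, 99.6% less than Sox11 and 91.1% to 93.4% less than Sox12. These shares were not matched for the size of the territory. As a share of the territory the order was another one, with 24.7% to 30.8% covered at Sox12, 9.23% to 14.1% at Sox11 and 4.73% to 6.67% at Sox4. In equal windows of 20 kb around each gene, neighbours included, Sox12 was again highest with 14.8 to 17.0 kb, while Sox11 (9.53 to 10.3 kb) and Sox4 (8.60 to 11.4 kb) overlapped.

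**Figure D3:**
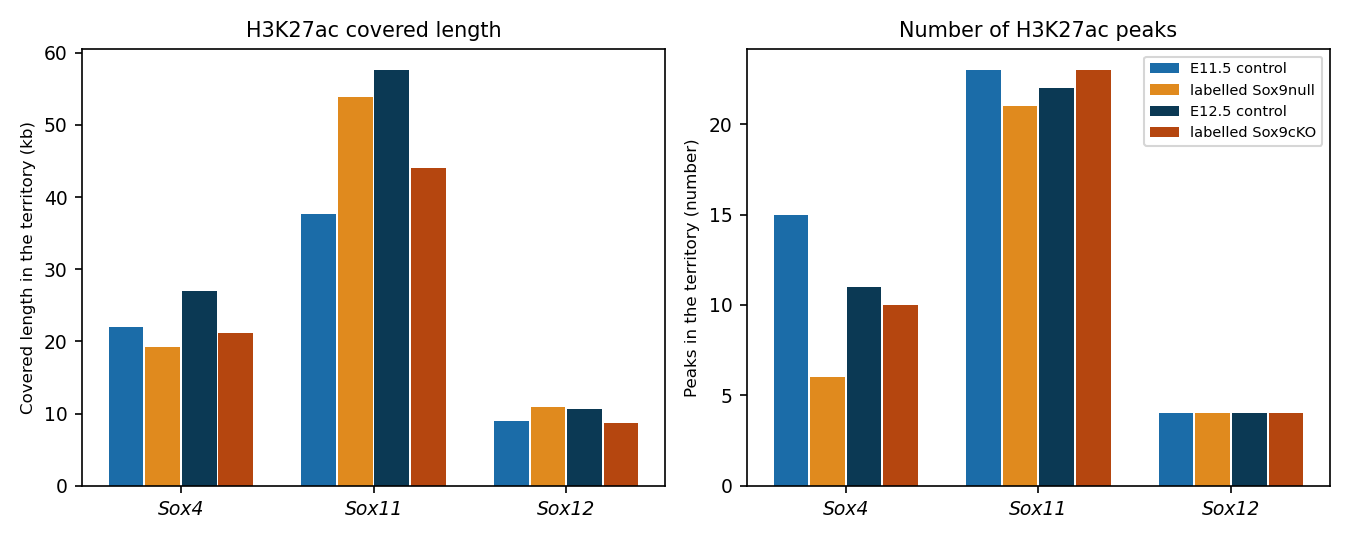
Covered length (left, kb) and number of peaks (right) in the territory of each gene, 1 bar per list and 1 library per bar, with no error bars. Sox11 covers 37.7 to 57.6 kb with 21 to 23 peaks, Sox4 covers 19.2 to 26.98 kb with 6 to 15 peaks, and Sox12 covers 8.74 to 10.9 kb with 4 peaks.

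The peaks of the 3 territories merged into 51 regions. Of all 49367 regions of the series, 40.1% were marked in all 4 lists. For Sox4 this held for 5 of 18 regions, for Sox11 for 12 of 29 and for Sox12 for 4 of 4, so that the Sox11 share (41.4%) lay near the background. Regions found in 1 list scored low. The 7 regions of Sox4 found in 1 list scored 54.3 to 76.3, and the 8 of Sox11 scored 54.4 to 118, where the lowest score of any list was 50.01. None of them ranked above more than 37.3% of its list. Regions found in 2 or 3 lists scored up to 185 at Sox4 and up to 221 at Sox11. Of the 7 Sox4 regions found in 1 list, 5 were in the E11.5 control. The share of all 49367 regions found in 1 list, or in the E11.5 control alone, is not given here. These counts are therefore not read as particular to the SoxC genes.

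The best peak of each shared Sox4 region ranked above at least 57.9% of its list in all 4 lists. Besides the start-site domain there was an upstream region 3.69 to 6.54 kb before the start site (chr13:28957387-28960234), with 2091 bp in the E11.5 control, 2164 bp in the Sox9null-labelled list, 2848 bp in the E12.5 control and 2336 bp in the Sox9cKO-labelled list. It scored above 84.9% to 90.9% of peaks in the same list and overlapped the long noncoding RNA gene Gm46405, which spans Sox4. A region 67.3 to 70.4 kb downstream (chr13:28883290-28886388) scored 2150 in the E11.5 control, 2304 in the Sox9null-labelled list, 2328 in the E12.5 control and 3100 in the Sox9cKO-labelled list. These are scores of different lists and are not compared, but within its list the region stood above at least 91.7% of peaks each time. The remaining shared regions lay 157 kb (chr13:28792750-28796410) and 194 kb (chr13:28755551-28759699) downstream. The last 3 regions overlap the long noncoding RNA gene 2610307P16Rik. Of the 18 regions around Sox4, 13 were downstream and 4 upstream of the start-site domain. The upstream side beyond 6.54 kb held 3 regions, all found in the E11.5 control alone with scores of 63.3 to 65.2.

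Sox11 had 11 distal regions marked in all 4 lists, on both sides of the gene. Upstream lay regions at 67.0, 122 and 126 kb, the last being the widest of them (chr12:27468562-27473641), with 4167, 4657, 4880 and 3926 bp covered in the order E11.5 control, Sox9null-labelled list, E12.5 control and Sox9cKO-labelled list. Downstream lay regions at 29.7 and 87.2 kb and a cluster of 6 shared regions between 152 and 208 kb. The region at 87.2 kb (chr12:27252850-27255512) had 1124 bp in the E11.5 control, 2432 bp in the Sox9null-labelled list, 2663 bp in the E12.5 control and 1201 bp in the Sox9cKO-labelled list. It ranked above 26.0% of its list in the E11.5 control and above 45.8% in the Sox9cKO-labelled list, against 66.4% and 70.2% in the Sox9null-labelled list and the E12.5 control. The region at 152 kb (chr12:27184886-27190597) was 5712 bp in the E12.5 control, against 1883, 3083 and 2158 bp in the E11.5 control, the Sox9null-labelled and the Sox9cKO-labelled list. No coding gene other than Sox11 was touched by these regions.

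Sox12 had 3 shared regions beside its own domain. The region 7.19 to 9.32 kb upstream (chr2:152405240-152407367) touched no annotated gene, and had 1573 bp in the E11.5 control, 2123 bp in the Sox9null-labelled list, 2105 bp in the E12.5 control and 1544 bp in the Sox9cKO-labelled list. The next region upstream (chr2:152408914-152416336) crossed the end of the territory and covered the whole of Zcchc3, so that it cannot be assigned to Sox12. The region 20.9 kb downstream crossed the other end, at Nrsn2. The parts of both regions inside the territory are counted in every covered length given for Sox12. Upstream of the domain, the part of the Zcchc3 region included, 3.808 kb was covered in the E11.5 control and 5.165 kb in the Sox9null-labelled list. It was 5.146 kb in the E12.5 control and 3.697 kb in the Sox9cKO-labelled list.

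Covered length in the 21 shared regions was higher in both the E12.5 control and the Sox9null-labelled list than in both other lists for 14 regions (3 of 5 at Sox4, 8 of 12 at Sox11 and 3 of 4 at Sox12). Over all 19792 regions marked in all 4 lists this order held for 40.3%, more often than any other pairing. Regions were counted at full width, and the 3 at Sox12 include the region over Zcchc3, which cannot be assigned to Sox12. Both deficient lists lay above both controls in 2 of the 21 (17.5% of all) and below them in 0 (6.55%). The E12.5 control and the Sox9cKO-labelled list lay above the other lists in 3 (18.9%), the E11.5 control and the Sox9null-labelled list in 1 (4.89%), and the E11.5 control and the Sox9cKO-labelled list in 1 (11.8%). The pairing that prevailed is that of the deposited file names by stage and also that of the median peak widths.

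**Figure D4:**
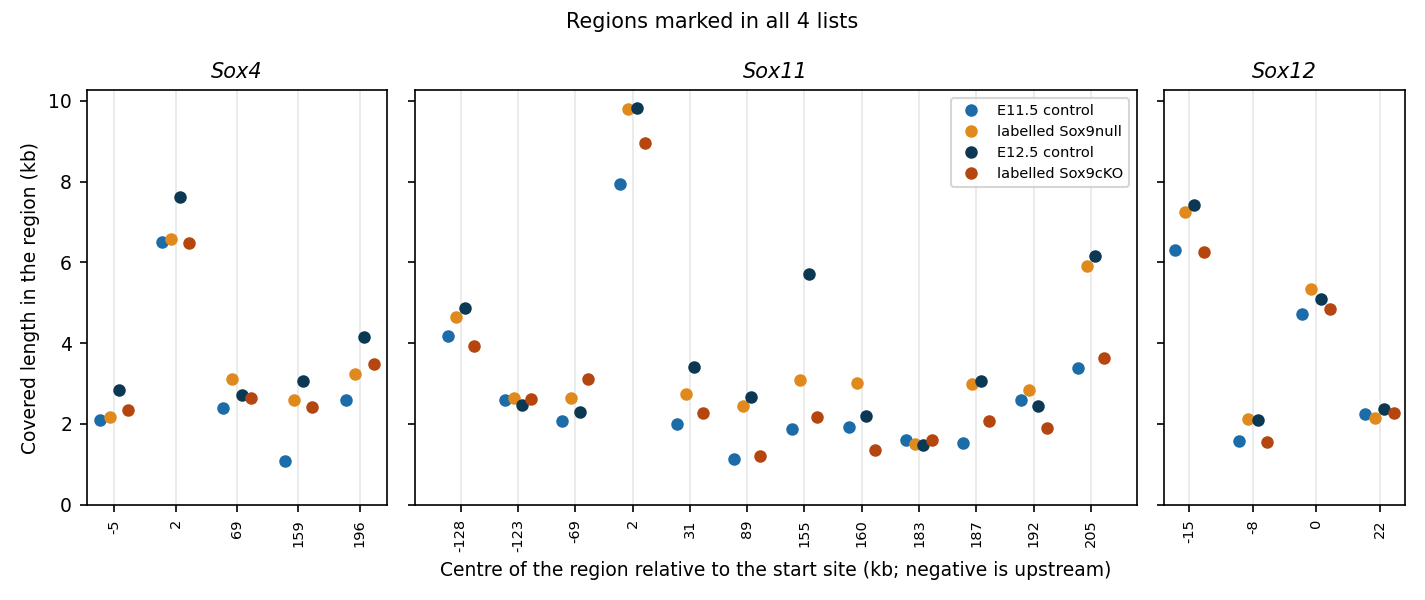
Covered length (kb) of the 21 regions marked in all 4 lists, by the centre of the region relative to the start site (kb, negative is upstream), with 1 point per list. At Sox11 the E12.5 control and the Sox9null-labelled list lie above both other lists in 8 of 12 regions, and the start-site domain at 2 kb spans 7.93 to 9.82 kb. Regions that cross the ends of the Sox12 territory are shown at full width.

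The controls of the 2 stages, when limb mesenchyme starts to condense, were set side by side around these genes. They also differed in peak width and in coverage of limb, muscle, erythroid, endothelial and surface ectoderm markers, as given above. With 1 library each, stage cannot be told apart from these. A gene was called when its covered length in the territory differed at least 1.5-fold, which held for 17.1% of 16778 genes with a peak in any list as higher at E12.5 and for 12.6% as lower. Sox11 was called higher, with 37.7 kb in the earlier and 57.6 kb in the later control (1.53-fold). The difference lay in its distal regions, with 29.8 and 47.8 kb outside the start-site domain, and most of that downstream (16.0 and 30.2 kb). With 20 kb on each side the fold was 1.03, and no call was made. Sox4 had 21.9 and 26.98 kb (1.23-fold) and Sox12 9.02 and 10.7 kb (1.18-fold), and neither was called. When each list was scaled to the same total covered length, which shifts all ratios by -0.36 on the log2 scale, the log2 ratio was 0.25 for Sox11, below the fold for a call, and -0.06 for Sox4 and -0.12 for Sox12, which turned to less at E12.5. The median gene had a log2 ratio of 0.12 before and -0.24 after scaling.

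Sox9-deficient and control lists of one stage were set side by side to ask whether acetylation of the SoxC loci goes with loss of Sox9. By label, the lists compared also differed in peak width and in marker coverage at both stages, as given above. With 1 library each, loss of Sox9 cannot be told apart from these. At E11.5 by label, 12.2% of the 16778 genes were called higher and 16.1% lower in the Sox9null-labelled list. None of the 3 genes was called. Sox4 had 21.9 kb in the control and 19.2 kb in the Sox9null-labelled list, Sox11 had 37.7 and 53.9 kb (1.43-fold), and Sox12 had 9.02 and 10.9 kb. Sox11 passed the fold for a call with the upper 50% of peaks by score (27.1 and 42.7 kb, 1.58-fold) and with equal numbers of top-scored peaks (35.4 and 53.9 kb, 1.52-fold). The share of all genes called under these settings was not computed. Other settings gave a smaller fold for Sox11. It was 1.25 when scaled to total covered length, 1.17 with the deficient lists exchanged and 1.03 with 20 kb on each side. In the E11.5 control 8 of the 15 Sox4 peaks scored below 100, against 1 of 6 in the Sox9null-labelled list. When peaks were restricted to the upper 50% by score, Sox4 had 15.5 and 17.7 kb, so the direction turned.

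At E12.5 by label, 17.5% of genes were called higher and 11.4% lower in the Sox9cKO-labelled list, and again none of the 3 was called. Sox4 had 26.98 kb in the control and 21.2 kb in the Sox9cKO-labelled list, Sox11 had 57.6 and 44.0 kb, and Sox12 had 10.7 and 8.74 kb. All 3 values were lower (0.784-fold for Sox4, 0.765-fold for Sox11 and 0.820-fold for Sox12). The median ratio over genes covered in the control was 1.01, and the median difference over all genes was 0.054 kb. The direction turned for Sox11 with 20 kb on each side (0.463 kb) and for Sox12 without stopping at the next gene (0.895 kb).

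With the deficient lists assigned by the deposited file names, the differences for Sox11 and Sox12 were smaller. The E11.5 comparison, in which 15.1% of genes were called higher and 5.05% lower, gave 37.7 and 44.0 kb for Sox11, 9.02 and 8.74 kb for Sox12 and 21.9 and 21.2 kb for Sox4. The E12.5 comparison, in which 4.32% of genes were called higher and 12.1% lower, gave 57.6 and 53.9 kb for Sox11, 10.7 and 10.9 kb for Sox12 and 26.98 and 19.2 kb for Sox4. Under this assignment too none of the 3 genes was called in either direction.

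An order of both deficient lists against both controls does not depend on the assignment. For Sox4 both deficient values lay under both control values, which held for 7.24% of 16778 genes, and the opposite order for 14.9%. The margin was 0.768 kb, set by the Sox9cKO-labelled list (21.2 kb) and the earlier control (21.9 kb), and it turned with the upper 50% of each list (-2.12 kb), with equal numbers of top-scored peaks (-2.00 kb) and with 20 kb on each side (-0.219 kb). Sox11 and Sox12 showed no such order, since their deficient and control values were interspersed. Among the regions, 2 at Sox4 and 1 at Sox11 had a peak in each control and were free of peaks in the deficient lists, as were 1.64% of all 49367 regions. The Sox4 pair lay 120 kb downstream (chr13:28833060-28833888, scores 63.4 at E11.5 and 53.6 at E12.5) and 114 kb downstream (chr13:28837689-28839631, scores 52.0 and 175). The reverse, found for 1.15% of all regions, was seen for 0 at Sox4 and for 1 at Sox11 (chr12:27390277-27392548), 47.6 kb upstream, with scores of 146 in the Sox9null-labelled list and 210 in the Sox9cKO-labelled list. All 4 Sox12 regions were present in every list.

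The other 16 SOX genes were covered very unevenly. By covered length in the E11.5 control the leading genes were Sox5 and Sox6, the SoxD partners of Sox9 in chondrocytes, then Sox9, Sox13, Sox8 and Sox18. In the order E11.5 control, Sox9null-labelled list, E12.5 control and Sox9cKO-labelled list, Sox5 had 33.3, 30.4, 56.7 and 22.7 kb in a territory of 1354 kb. Sox9 had 18.7, 25.3, 26.4 and 24.8 kb in one of 406 kb. Acetylation at Sox9 does not check its deletion. Sox11, in a territory of nearly the same size as that of Sox9, was covered by more than Sox9 in each list. Of 10 other SOX genes with a start-site record, 2 (Sox13 and Sox30) had the start site in a peak in all 4 lists, with widths of 1253 to 2363 bp, below those of all 3 SoxC genes. Sox9 and Sox18 were among the SOX genes without such a record, so their start sites were not assessed. Sox6 had its start site in a peak in the E11.5 control (2010 bp) and in the E12.5 control, where the 10842 bp peak was wider than any SoxC domain. Between the controls 3 of 15 SOX genes with a peak were called higher at E12.5 and 4 lower, beside 17.1% and 12.6% of all genes (median difference 0.086 kb, against 0.131 kb for all genes). In the Sox9null-labelled list 2 were called higher and 5 lower, beside 12.2% and 16.1% (median difference -0.512 kb, against 0.052 kb). In the Sox9cKO-labelled list 4 were called higher and 3 lower, beside 17.5% and 11.4% (median difference 0 kb, against 0.054 kb). Assigned by file name, the E11.5 comparison gave 4 higher and 2 lower, beside 15.1% and 5.05%, with a median difference of 0.101 kb, so its direction turned. The E12.5 comparison then gave 1 higher and 4 lower, beside 4.32% and 12.1%, with a median difference of -0.028 kb. Medians in kb of the SOX genes and of all genes were not matched for covered length, so their sizes are not compared. Both deficient lists lay below both controls for 2 of these 15 genes and above them for 0, beside 7.24% and 14.9% of all genes.

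Genes linked to SoxC factors in earlier work were counted in the same way. The list of 16 holds Tead2, a known SoxC target in mouse mesenchyme, Wnt pathway genes, and neuronal genes such as Tubb3. In controls 4 were called higher at E12.5 and 3 lower, beside 17.1% and 12.6% of all genes, with a median difference of 1.93 kb (0.131 kb for all genes). The Sox9null-labelled list had 2 higher and 3 lower than the E11.5 control, beside 12.2% and 16.1%, with a median difference of 2.20 kb (0.052 kb). The Sox9cKO-labelled list had 3 higher and 0 lower than the E12.5 control, beside 17.5% and 11.4%, although the median difference was -1.24 kb (0.054 kb). Assigned by file name, 1 was higher and 1 lower at E11.5 (median difference 0.717 kb), beside 15.1% and 5.05%, and 1 higher and 0 lower at E12.5 (-0.224 kb), beside 4.32% and 12.1%. A difference in kb can be larger where more is covered. Medians of this list and of all genes were not matched for covered length, so their sizes are not compared. Tcf7l2, a nuclear effector of Wnt signalling, had 39.0, 41.1, 58.2 and 51.3 kb in the order used for Sox5. Ror2, a receptor for Wnt5a, had 37.1, 55.6, 55.7 and 45.3 kb, Axin2, a feedback inhibitor of the pathway, 21.6, 37.3, 39.7 and 28.5 kb, Lef1 20.4, 23.1, 24.2 and 18.3 kb, Wnt5a 17.9, 23.5, 24.5 and 18.7 kb, and Ctnnb1, which encodes beta-catenin, 13.5, 16.6, 18.7 and 15.1 kb. In each of Ror2, Axin2, Lef1, Wnt5a and Ctnnb1, as in Sox11, the E12.5 control and the Sox9null-labelled list were the highest. This order held for 7 of the 16 listed genes and for 24.6% of all 16778 genes. The opposite order held for 4 (24.0% of all genes), among them Tcf7, with 7.30, 3.87, 3.44 and 7.89 kb, and Gsk3b, which encodes a kinase that marks beta-catenin for breakdown, with 7.55, 5.48, 5.11 and 7.20 kb. Tead2 had 3.01, 2.95, 3.08 and 2.94 kb, all in its start-site peak.

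Genes whose covered length was most like that of a SoxC gene were found by the distance between log2(kb + 1) values in the 4 lists, over the gene plus 20 kb on each side. Nearest to Sox4 were Psmc5, Smarcd2 and Tcam1 (distance 0.071 each), which share the same peaks. Nearest to Sox11 were Clip3 (0.031), Mbd3 (0.045) and Uqcr11 (0.047), and nearest to Sox12 were Isg20l2 (0.099), Wbp1 (0.11) and Coa7 (0.12). Mbd3 and Uqcr11 had equal values in the E11.5 control (9.663 kb) and in the Sox9cKO-labelled list (10.306 kb), so they may not be separate likenesses. The measure rests on 4 libraries and ranks levels near the gene only.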

How the data were processed

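H3K27ac peak lists of 4 mouse limb bud libraries were used. Each deposited list gives position, name and a score per peak, the score being the authors' own with no unit stated. The submitters' processing notes name build mm10 and the tools CASAVA 1.8 and deepTools, and the peak names in the files name MACS. Aligner, peak-calling settings and use of input: not given in the sources used here. Read depth is unknown, and no counting interval is given. Peaks were called per sample.

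Genes and promoters came from RefSeq tables of GRCm38.p6, and all 3 members matched in both. Covered length is the bp under peaks in the gene body plus up to 200 kb on each side, cut at the next protein-coding gene. Regions are the union of the 4 lists (overlap of 1 bp). A fold of 1.5 was used for calls, with no test, since each group had 1 library. Shares of called genes are of genes with a peak in any of the 4 lists. This set replaced, after both had been seen, genes with a peak in either of the lists compared, which moves a share by at most 0.899 percentage points and no member's call. Alternatives were the upper 50% by score, equal numbers of top peaks, exchanged deficient lists, scaling to total covered length, and other windows and merging rules. The 3 genes, the lists and the rule for naming genes (members, coding neighbours, the 3 most alike genes, and up to 6 of each gene list by E11.5 control coverage) were chosen with earlier results of these data known. Tead2, Tubb3, Tcf7, Gsk3b, Sox13, Sox30, the defensin genes, Tbx4 and Tbx5 were named with their values known. The scripts ran in Python 3.11.15 with pandas 2.3.3, numpy 2.4.6 and matplotlib 3.10.9. Calls of lower covered length were checked on the E11.5 control list with its peaks halved at selected genes. Covered length was also recounted base by base on chromosome X. The other steps had no such check.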

Additional observations from a re-analysis of the deposited data

Results flagged for a closer look

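By label, Sox11 and Sox12 differed from the control in opposite directions at the 2 stages, with 1 library in each group, and this difference between stages was not tested. Sox11 covered length was higher by 16.2 kb in the Sox9null-labelled list than in the E11.5 control, and the difference was -13.6 kb for the Sox9cKO-labelled list against the E12.5 control. For Sox12 the differences were 1.84 kb and -1.91 kb, with the part of the Zcchc3 region inside the territory counted in. With the deficient lists assigned by the deposited file names they were 6.34 and -3.73 kb for Sox11 and -0.284 and 0.213 kb for Sox12.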

How the results depend on the processing

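Of 71 recomputed values, 39 kept their direction and lay within 1.5 times the reported value. Part of these could not change. Not stopping at the next gene left 9 values of Sox4 and Sox11 as they were, since neither has a coding neighbour within 200 kb. All 4 Sox12 peaks of each list were in the upper 50% by score, so score limits left Sox12 unchanged. Of the values scaled to total covered length, 0 stayed within these bounds and 10 moved. No paired analysis was possible because each group had 1 library. Merging peaks up to 1000 bp apart, or asking for 50% of a region, moved no count of shared regions by more than 1.5 times. For the upper 50% of peaks by score, the Sox4 difference was 2.12 kb (Sox9null-labelled list minus E11.5 control) and -2.59 kb (Sox9cKO-labelled list minus E12.5 control), the margin between controls and deficient lists at Sox4 was -2.12 kb, and 7 Sox11 regions were shared. With the same number of top peaks (28419), the Sox4 difference at E11.5 was 1.47 kb and the margin -2.00 kb. Exchanging the deficient lists gave -0.768 kb at E11.5 for Sox4, 6.34 and -3.73 kb for Sox11 and -0.284 and 0.213 kb for Sox12.

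Scaling to total covered length gave, in the order E12.5 minus E11.5 control, Sox9null-labelled list minus E11.5 control and Sox9cKO-labelled list minus E12.5 control, -1.01, -6.01 and -3.23 kb for Sox4, 8.32, 10.6 and -8.01 kb for Sox11 and -0.816, 0.513 and -0.893 kb for Sox12, with a Sox4 margin of 3.23 kb. With 20 kb on each side the values were 2.78, 0.133 and -2.56 kb for Sox4 (margin -0.219 kb) and 0.292, 0.267 and 0.463 kb for Sox11. Without stopping at the next gene, which changes Sox12 only, they were -0.779, -0.627 and 0.895 kb for Sox12, with 8 shared regions. Apart from what each alternative removes by construction, the cause was not tested. The Sox4 margin was examined after its order was seen.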
